A study of Homo sapiens with 6 samples.

Results

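The heat shock protein and DNAJ chaperone genes were measured in human embryonic stem cells (hESCs) with and without S6 kinase 1 (S6K1). They were chosen by symbol alone: the numbered HSPA, HSPB, DNAJA, DNAJB and DNAJC genes, the HSP90 genes HSP90AA1, HSP90AB1 and HSP90B1, the genes HSPD1, HSPE1 and HSPH1, and the heat shock factors HSF1, HSF2 and HSF4. The rule found 76 of the 61155 symbols in the count table. Of these, 60 held enough counts to be tested and 16 did not. Those 16 include HSPA7 and DNAJB3, which are annotated as pseudogenes.

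Both groups were H7 cells, a human embryonic stem cell line, grown without feeder cells on Matrigel in TeSR-E8 medium. The 3 WT libraries came from wild-type H7 cells. The 3 S6K1-/- libraries came from H7 cells in which CRISPR/Cas9 had been directed at exons 9 and 11 of RPS6KB1, the gene that encodes S6K1. These cells were a single clone. Differences between the groups therefore cannot be told apart from differences between this clone and its parent line. The labels call the second group a knockdown and attach week 5 to the samples, whereas the methods describe undifferentiated knockout cells. The sources used here do not say whether the libraries of a group came from separate cultures, so p-values measure the spread between these libraries, which may be technical.

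Chaperones bind unfolded or partly folded proteins and help them to reach or regain their shape. HSP70 proteins (HSPA genes) do this in cycles of ATP hydrolysis that are started by J-domain proteins (DNAJ genes) and reset by nucleotide exchange factors, HSP90 proteins act later on clients such as kinases, and the HSP60 and HSP10 pair (HSPD1 and HSPE1) encloses proteins in the mitochondrial matrix. Heat shock factor 1 raises the transcription of many of these genes when unfolded proteins accumulate, and S6K1 acts in the mTOR pathway that controls how much protein a cell makes.

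Library totals ranged from 21896698 to 24473013 counts, and levels were scaled to the size of each library (CPM), where 3 counts correspond to 0.123 to 0.137 CPM. RPS6KB1 had 831, 791 and 777 counts in WT and 464, 464 and 438 in S6K1-/- cells, a log2 fold change of -0.75 (SE 0.057, edgeR adjusted p = 2.52e-07). The markers that define pluripotent cells, POU5F1, NANOG, SOX2 and LIN28A, were present in every library, with group means from 177 to 1215 CPM, and none passed an adjusted p of 0.05. Markers of other cell types were called in both directions. At an adjusted p below 0.05, which 8.31% of all genes passed as lower and 5.47% as higher in S6K1-/- cells, 4 of 6 mesenchyme markers tested fell (COL1A1 to 28.9%, COL1A2 to 70.5%, PDGFRB to 39.5% and ACTA2 to 35.7% of WT) and 0 rose, with 5 lower and 0 higher at an unadjusted p of 0.05 and 3 and 0 with DESeq2. Of 7 mesendoderm and endoderm markers tested, 3 fell and 1 rose, with CER1 at -2.29 and FOXA2 at -0.88 on the log2 scale; at an unadjusted p of 0.05 there were 6 lower and 1 higher, and with DESeq2 2 and 0. Of 6 neuroectoderm markers 2 fell (DCX at -0.54 and MAP2 at -0.85) and 1 rose (PAX6 at 0.76), and of 3 amnion and trophoblast markers 1 fell (KRT7 at -0.82) and 1 rose (GATA2 at 0.87). With DESeq2 these counts were the same, and at an unadjusted p of 0.05 they were 2 lower and 2 higher for neuroectoderm and 1 and 1 for amnion and trophoblast. The summed level of the mesenchyme markers tested was 628 to 645 CPM in WT and 541 to 561 CPM in S6K1-/- cells, most of it from THY1, which was not called, with DCN at 0 in all libraries. In bulk RNA, fewer cells of a type and less RNA per cell cannot be told apart, and the part of these cells in the chaperone values was not tested.

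Promoter sequences are shown first, because heat shock factors are known to bind the heat shock element and the factors of the endoplasmic reticulum (ER) stress response the ER stress element. The 250 bases before each transcription start were taken from RefSeq (GRCh38.p14), where 66 of the 76 genes had an entry. Both strands were searched for the heat shock element as 3 adjoining units (GAA, any 2 bases, TTC, any 2 bases and GAA, or the same with GAA and TTC exchanged) and for the ER stress element (CCAAT, any 9 bases and CCACG). The heat shock element was present before 6 of the 66 genes (9.09%), against 0.557% of 27305 genes with an entry. The ER stress element was present before 2 of the 66 (3.03%), against 0.0916% of all genes. The matches are given 5′ to 3′ on the strand of the gene, with the matched letters in capitals.
HSP90AA1, chr14:102087115-102087137, minus strand: ggttcTTCCGGAAGGTTCgggag
HSP90AB1, first match, chr6:44247773-44247795, plus strand: gcaggTTCTGGAAGATTCatggg
HSP90AB1, second match, chr6:44247826-44247848, plus strand: gattgTTCTGGAAGCTTCtggat
HSPA8, first match, chr11:123062349-123062371, minus strand: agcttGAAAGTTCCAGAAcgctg
HSPA8, second match, chr11:123062174-123062196, minus strand: gccccTTCTGGAAGGTTCtaaga
HSPD1, chr2:197500063-197500090, minus strand: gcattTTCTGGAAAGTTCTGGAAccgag
DNAJB6, chr7:157336868-157336890, plus strand: gccgaGAACCTTCGCGAAggtgg
HSPA6, chr1:161524461-161524483, plus strand: aaaggTTCGCGAAAGTTCgcggc
HSPA5, ER stress element, chr9:125241386-125241414, minus strand: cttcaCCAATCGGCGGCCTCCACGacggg
HSP90B1, ER stress element, chr12:103930211-103930239, plus strand: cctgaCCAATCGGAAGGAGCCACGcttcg
HSP90B1, ER stress element on the other strand, chr12:103930316-103930344, plus strand: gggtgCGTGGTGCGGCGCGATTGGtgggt

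None of these stretches lies in an exon of the canonical GENCODE transcript of its gene. Those of HSPD1, HSPA8 and HSP90B1 overlap exons of other transcripts of the same gene, those of HSP90AA1, HSP90AB1 and DNAJB6 lie within the gene span but in no exon, and those of HSPA5 and HSPA6 lie outside it. A match describes the letters only, and binding was not measured.

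Of the 60 chaperone genes tested, 1 fell and 1 rose at the threshold of the study's methods, an adjusted p below 0.001. HSPA2 was the one that fell and DNAJB5 the one that rose. Over all 19521 genes tested, 3.96% passed this threshold, with 2.54% lower and 1.42% higher in S6K1-/- cells. At an adjusted p below 0.05, 3 chaperone genes fell (HSPA2, DNAJA4 and HSPA12A) and 3 rose (DNAJB5, DNAJC5 and DNAJA2), against the 8.31% lower and 5.47% higher of all genes. These counts lie near the background. Their log2 fold changes ranged from -0.55 to 0.29 with a median of -0.0026, beside a median of -0.0024 over all genes, and 31 of the 60 were below 0.

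The intervals were narrow for many of these genes. For 42 of the 60 (70%), the 95% interval of the ratio of S6K1-/- to WT lay within 20% of no change, against 41.7% of all genes tested. The median standard error was 0.057 on the log2 scale, against 0.083 over all genes. For 21 of the 60 chaperone genes, WT and S6K1-/- libraries were fully apart in CPM, 14 of them lower and 7 higher in S6K1-/- cells, whereas 30.7% of all genes tested had groups that did not overlap, 16.7% lower and 14% higher. The summed level of the tested chaperone genes was 14547, 14647 and 14508 CPM in WT and 14247, 13841 and 14481 CPM in S6K1-/- cells.

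**Figure D1:**
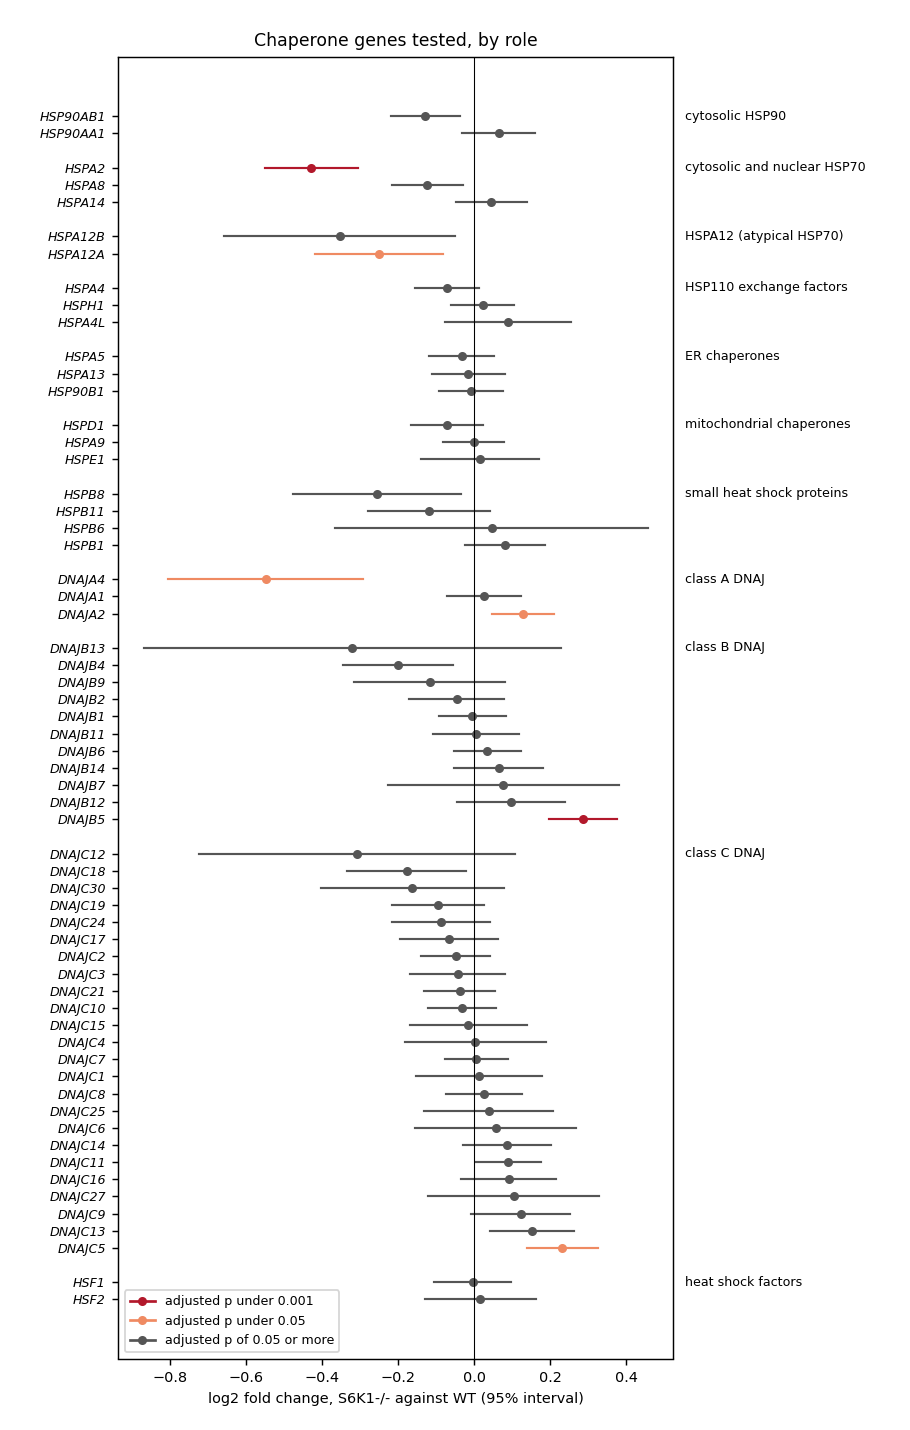
Log2 fold change of each of the 60 tested chaperone genes in S6K1-/- against WT cells (horizontal axis), with points for the estimate, lines for the 95% interval (n = 3 libraries a group) and genes grouped by role. Most intervals cross 0, and the 2 genes past an adjusted p of 0.001 are HSPA2 at -0.43 and DNAJB5 at 0.29.

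The levels per transcript length differed between the roles far more than between the genotypes. In CPM per kilobase of canonical transcript (RPKM), HSP90AB1, the constitutive cytosolic HSP90, stood highest with a level of 1393 ± 26.1 (SD, n = 3) in WT and 1274 ± 17.2 in S6K1-/- cells. HSP90AA1, the stress-inducible cytosolic HSP90, followed with a level of 848 ± 15 RPKM in WT and 887 ± 33.5 in S6K1-/- cells. Next came HSPD1 with 717 ± 11.99 RPKM in WT and HSPA8, the constitutive HSP70 also called HSC70, with 660 ± 18.7. The ER form of HSP90, HSP90B1, had a level of 378 ± 3.38 RPKM in WT. HSPB1, HSPA5, HSPA4, HSPA9 and DNAJB6 lay between 117 and 125 RPKM in WT, and HSPB1, at 122.0 ± 6.02, was not separated from the others by its spread over libraries. The order of the first 5 genes was the same in both genotypes. DNAJB13, at 0.718 RPKM in WT, was the lowest of the genes tested.

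**Figure D2:**
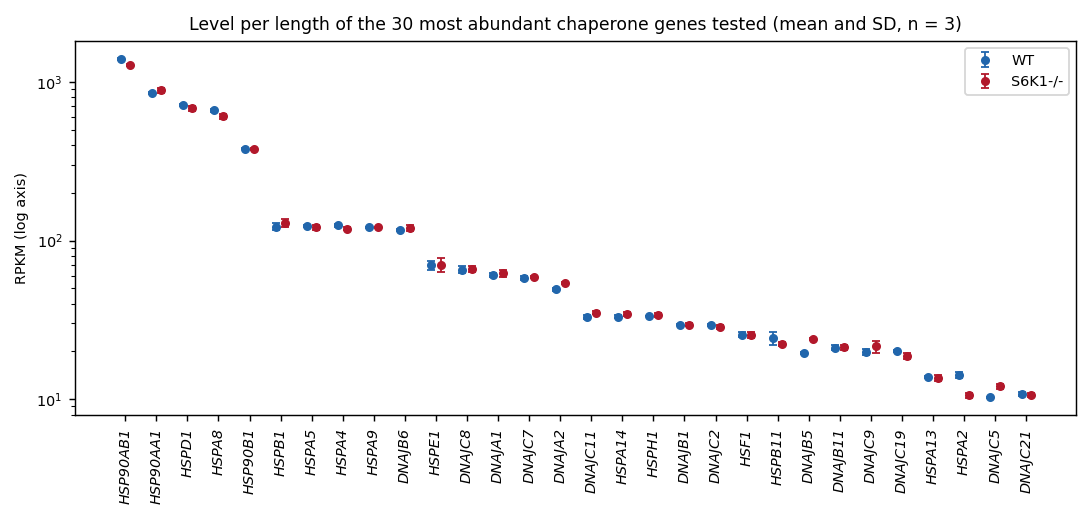
RPKM (log axis) of the 30 chaperone genes with the highest levels among those tested, in WT (blue) and S6K1-/- (red) cells, as the mean and SD of 3 libraries. The levels run from 1393 RPKM for HSP90AB1 in WT to about 10 RPKM, and the pairs of points lie close together beside that range.

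HSPA2 was the chaperone gene with the smallest p. It encodes an HSP70 best known from the testis, and its canonical transcript is a single exon within chr14:64535905-64546173 of GRCh38, plus strand. Its counts were 896, 874 and 788 in WT and 619, 605 and 597 in S6K1-/- cells. Every S6K1-/- library was thus below every WT library, and the groups did not overlap. On the CPM scale the level was 35.4 ± 1.44 (SD, n = 3) in WT and 26.4 ± 1.08 in S6K1-/- cells. The log2 fold change was -0.43 (SE 0.0575, edgeR adjusted p = 1.0e-04), which left 74.3% of the WT level, with a 95% interval from 68.3% to 80.9%. All of its 100-base transcript windows occur once in the genome, so that no identical copy shares them. Copies that differ by single bases were not searched for. An antisense RNA, HSPA2-AS1, is annotated on the other strand over 4464 bases of the HSPA2 span, and since the strand setting of the counting was not given in the sources used here, its reads cannot be told apart from those of HSPA2. Without S6K1-/- replicate 2 the adjusted p was 0.0011, just above the threshold.

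The other cytosolic HSP70 genes differed from HSPA2 in level and in size of change. HSPA8 had 37212, 37069 and 33613 counts in WT and 32581, 31660 and 30598 in S6K1-/- cells. Its groups did not overlap, yet its log2 fold change of -0.12 (SE 0.0436) had an adjusted p of 0.0763 in the edgeR test. HSPA14, a ribosome-associated HSP70, had a log2 fold change of 0.05 (adjusted p = 0.565). The ratio of HSPA2 to HSPA8 counts was 0.0241, 0.0236 and 0.0234 in WT and 0.0190, 0.0191 and 0.0195 in S6K1-/- cells. The groups did not overlap in this ratio (exact permutation test, two-sided, p = 0.1, the smallest p that 3 against 3 libraries allow). HSPA2 was taken up because it had been called lower, so this separation restates that call and is no separate evidence.

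The atypical HSP70 genes HSPA12A and HSPA12B, which are distant in sequence from the rest of the family, were both lower in S6K1-/- cells by their estimates. HSPA12A had 346, 298 and 322 counts in WT and 263, 270 and 246 in S6K1-/- cells. The groups did not overlap, and the log2 fold change was -0.25 (SE 0.0791, edgeR adjusted p = 0.0481). This call passed 0.05 under 3 of 12 alternative settings, where its adjusted p ranged from 0.0129 to 0.233. HSPA12B, with 92 to 108 counts in WT and 65 to 89 in S6K1-/- cells, had a log2 fold change of -0.35 (SE 0.142) that did not pass (adjusted p = 0.121).

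Among the 3 nucleotide exchange factors of the HSP110 group, which release ADP from HSP70, 0 passed an adjusted p of 0.05 in edgeR's test, 0 in DESeq2's and 0 an unadjusted p of 0.05. Of all genes tested, 13.8% passed the adjusted and 26.4% the unadjusted p of 0.05 in edgeR's test, so that a count of 0 among so few genes is no result about the group. HSPA4, the highest of them, had a log2 fold change of -0.07 (SE 0.0396, adjusted p = 0.271) with 13956 to 14686 counts in WT and 12557 to 13431 in S6K1-/- cells. HSPH1 was at 0.02 (adjusted p = 0.77) and HSPA4L at 0.09 (adjusted p = 0.521).

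The cytosolic HSP90 genes, which encode closely related proteins, had estimates of opposite sign. HSP90AB1 had 84853, 88910 and 82976 counts in WT and 76468, 76859 and 71792 in S6K1-/- cells. These groups did not overlap, and the log2 fold change was -0.13 (SE 0.0429, edgeR adjusted p = 0.0619). HSP90AA1 had 67023, 68293 and 62357 counts in WT and 67164, 65982 and 64694 in S6K1-/- cells, a log2 fold change of 0.06 (SE 0.0449, adjusted p = 0.406) with groups that overlapped. Neither passed 0.05 in this test. With DESeq2's Wald test, and with no filter on low counts, HSP90AB1 and HSPA8 were called lower at 0.05, while the lowest and highest adjusted p of HSP90AB1 over 12 alternatives were 0.0057 and 0.187.

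The ratio of HSP90AA1 to HSP90AB1 counts, which does not depend on the scaling of a library, was 0.790, 0.768 and 0.752 in WT and 0.878, 0.858 and 0.901 in S6K1-/- cells. All 3 S6K1-/- libraries lay above all 3 WT libraries (exact permutation test, two-sided, p = 0.1, the smallest possible). Adding the counts of their numbered pseudogenes, which made up 0.654% and 0.336% of the sums for HSP90AA1 and HSP90AB1, gave mean ratios of 0.772 in WT and 0.882 in S6K1-/- cells. Groups that do not overlap were also seen for 30.7% of all genes tested, and a ratio does not tell which of its genes differs.

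**Figure D3:**
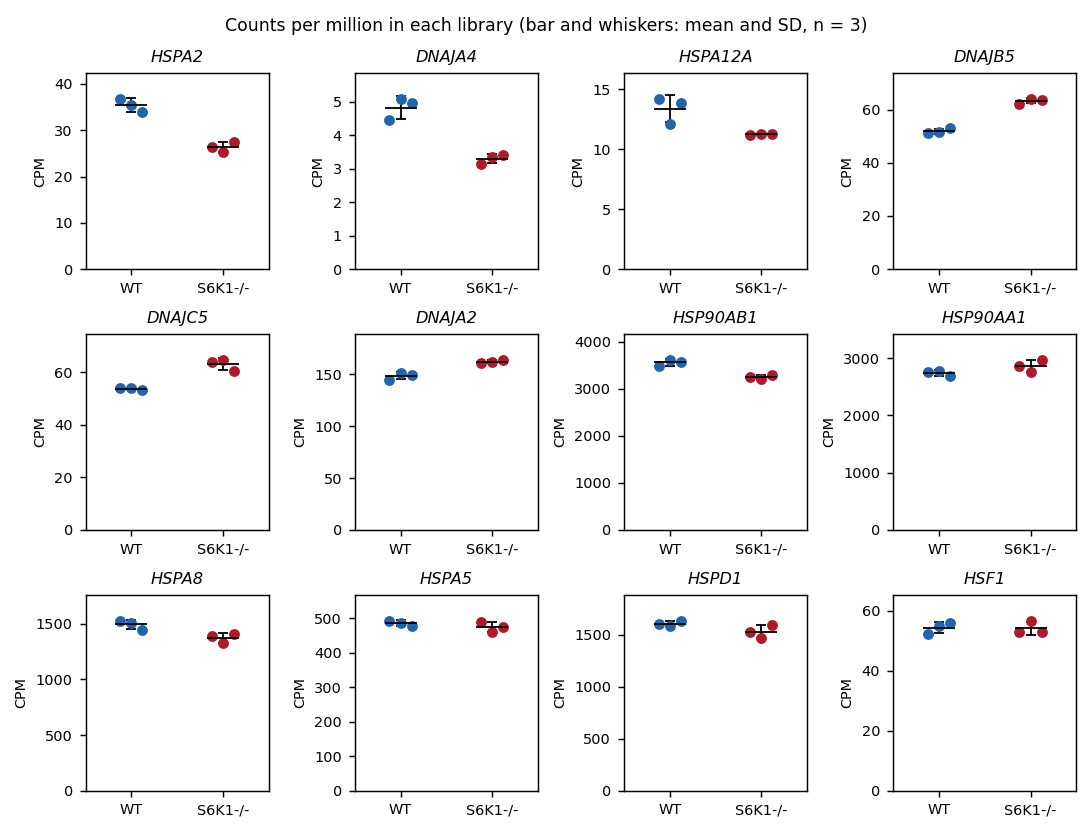
CPM in each of the 3 WT (blue) and 3 S6K1-/- (red) libraries for 12 chaperone genes, with bars and whiskers for the mean and SD and all axes starting at 0. The groups are apart for HSPA2, DNAJA4, HSPA12A, DNAJB5, DNAJC5, DNAJA2, HSP90AB1 and HSPA8, and they overlap for HSP90AA1, HSPA5, HSPD1 and HSF1.

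The J-domain proteins bring clients to HSP70 and start its ATP hydrolysis. DNAJB5, a class B J-domain protein of the cytosol and nucleus, lies on chr9:34989641-34998900, plus strand, and overlaps no other annotated gene. Its counts were 1249, 1269 and 1233 in WT and 1464, 1536 and 1388 in S6K1-/- cells. Each S6K1-/- library was above each WT library. Its level was 52.0 ± 0.948 CPM (SD, n = 3) in WT and 63.4 ± 0.95 in S6K1-/- cells, and the log2 fold change was 0.29 (SE 0.0421, edgeR adjusted p = 2.3e-04), or 122% of the WT level with an interval from 115% to 130%. Leaving out WT replicate 1 or any one of the S6K1-/- libraries raised its adjusted p to between 0.00139 and 0.00171, so that the call at 0.001 rested on these libraries, whereas the log2 fold change stayed between 0.28 and 0.31.

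Of the other class B genes, DNAJB6, a suppressor of polyglutamine aggregation and the highest of the class per length, had a log2 fold change of 0.03 (SE 0.0414, adjusted p = 0.652). DNAJB1, the heat-inducible partner of HSP70 also known as HSP40, had 1548 to 1623 counts in WT and 1416 to 1622 in S6K1-/- cells, with a log2 fold change of -0.0049 (SE 0.0409, adjusted p = 0.958). DNAJB4 had a log2 fold change of -0.20 (SE 0.0679, adjusted p = 0.0657) and groups that did not overlap. In all, 11 of 13 class B genes were tested and DNAJB5 was the one called at an adjusted p below 0.05, which 13.8% of all genes passed.

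Class A, whose members keep the full domain layout of the bacterial founder of the family, held 1 gene that fell and 1 that rose among the 3 tested at an adjusted p below 0.05, which 8.31% of all genes passed as lower and 5.47% as higher. DNAJA4 had 108, 125 and 115 counts in WT and 74, 80 and 74 in S6K1-/- cells. It had the most negative log2 fold change of the chaperone genes tested, -0.55 (SE 0.12, edgeR adjusted p = 0.0059), or 68.4% of the WT level with an interval from 57.3% to 81.6%. With DESeq2's Wald test it did not pass 0.05 (adjusted p = 0.0577). DNAJA2, a cytosolic partner of HSPA8, rose by less on a higher level, with 3521, 3727 and 3464 counts in WT and 3776, 3874 and 3571 in S6K1-/- cells. Its log2 fold change was 0.13 (SE 0.038, adjusted p = 0.0363), and its call at 0.05 was kept in 7 of 12 alternatives. DNAJA4 shares 4362 bases of its span with SKIC8 on the other strand, from which its reads cannot be told apart without a strand setting. DNAJA1, the highest of the class per length, had a log2 fold change of 0.03 (adjusted p = 0.784).

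Class C holds J-domain proteins of many compartments, and 24 of its 27 genes were tested. DNAJC5, the cysteine string protein of secretory vesicles, was the one called at an adjusted p below 0.05, beside 13.8% of all genes. At an unadjusted p of 0.05 the class had 1 gene lower and 3 higher, where 14.5% of all genes were lower and 11.8% higher. Its counts were 1314, 1328 and 1242 in WT and 1502, 1553 and 1321 in S6K1-/- cells, and in CPM the groups did not overlap, with levels of 53.8 ± 0.306 and 63.2 ± 2.20 (SD, n = 3). The log2 fold change was 0.23 (SE 0.0435, edgeR adjusted p = 0.0019). It passed 0.05 under all 12 alternatives, and it passed 0.001 under 1 of them, with no filter on low counts (adjusted p = 2.4e-04). A long noncoding RNA is annotated on the same strand over 33327 bases of the DNAJC5 span, so that reads in the shared part cannot be told apart by strand. DNAJC13, an endosomal J-domain protein, had a log2 fold change of 0.15 (SE 0.0516, adjusted p = 0.0663) with groups that did not overlap. DNAJC8, a splicing-associated protein and the highest of the class per length, was at 0.03 (adjusted p = 0.793). Its level in WT was 65.4 RPKM, beside 58.4 for DNAJC7. The share of transcript windows that cross a junction was 39.0% for DNAJC8 and 68.1% for DNAJC7, and RPKM was not corrected for this.

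In the ER, 0 of the 13 members tested passed an adjusted p of 0.05 with edgeR or with DESeq2, and 1 was lower at an unadjusted p of 0.05 (DNAJC18, at -0.18), beside 13.8% of all genes at the adjusted p and 14.5% lower at the unadjusted p. HSPA5, the ER HSP70 known as BiP, had 12005, 11946 and 11103 counts in WT and 11501, 11017 and 10319 in S6K1-/- cells. Its log2 fold change was -0.03 (SE 0.0401, adjusted p = 0.658), or 97.7% of the WT level with an interval from 92.1% to 103.7%. HSP90B1, known as GRP94, was at -0.0085 (SE 0.0394, adjusted p = 0.922) with an interval from 93.8% to 105% of WT. These are the genes with the ER stress elements printed above. Among the J-domain proteins of the ER, DNAJB9 was at -0.12 (adjusted p = 0.473), DNAJB11 at 0.0056 (adjusted p = 0.963) and DNAJC3, which binds the kinase PERK, at -0.04 (adjusted p = 0.697). Over the 13 ER members tested, drawn from several roles, the median log2 fold change was -0.0085 and the range -0.18 to 0.10.

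Of the 8 mitochondrial members tested, 0 passed an adjusted p of 0.05 with edgeR or with DESeq2, and 1 was higher at an unadjusted p of 0.05 (DNAJC11, at 0.09), beside 13.8% of all genes at the adjusted p and 11.8% higher at the unadjusted p. HSPD1 had 38976, 39022 and 38077 counts in WT and 35906, 35204 and 34691 in S6K1-/- cells, a log2 fold change of -0.07 (SE 0.0439, adjusted p = 0.33). Although its raw counts were lower in each S6K1-/- library, its CPM overlapped between the groups. HSPA9, the matrix HSP70 known as mortalin, was at -0.0014 (SE 0.0375, adjusted p = 0.986), with an interval from 94.5% to 106% of WT. HSPE1, the HSP10 partner of HSPD1, had 878, 1022 and 905 counts in WT and 824, 1038 and 859 in S6K1-/- cells and a log2 fold change of 0.02 (SE 0.0726, adjusted p = 0.92).

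HSPD1 and HSPE1 lie head to head on chromosome 2, with 538 bases between their canonical transcripts, and their proteins work as one complex. Yet per length the level of HSPE1 in WT was 69.8 ± 4.95 RPKM (SD, n = 3) beside 717 ± 11.99 for HSPD1. Several features of the table bear on this difference. Rows for 26 numbered HSPE1 pseudogenes held counts equal to 15.1% of HSPE1 and its pseudogenes together, against 1.30% for HSPD1. The readthrough gene HSPE1-MOB4 covers 3037 bases of HSPE1 on the same strand, and its row held 0 counts in every library. The gene span of HSPD1, taken over all its transcripts, covers 3310 bases of HSPE1 on the other strand. Of the 100-base windows of the HSPE1 transcript, 42.4% cross a splice junction and do not occur contiguously in the genome, and the reads were aligned with Bowtie2, which does not align across junctions. The share was 44.9% for HSPD1. The part of each of these in the HSPE1 level was not tested. The ratio of HSPD1 to HSPE1 counts was 44.4, 38.2 and 42.1 in WT and 43.6, 33.9 and 40.4 in S6K1-/- cells, with groups that overlapped.

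Among the small heat shock proteins, which hold unfolded proteins without using ATP, 4 of 8 were tested and 0 passed an adjusted p of 0.05 with edgeR or with DESeq2, while 1 was lower at an unadjusted p of 0.05 (HSPB8), as were 14.5% of all genes. HSPB1, known as HSP27 and the highest of them, had 2183, 2429 and 2229 counts in WT and 2281, 2549 and 2117 in S6K1-/- cells, with a log2 fold change of 0.08 (SE 0.0489, adjusted p = 0.321). HSPB8, a partner of BAG3, had a log2 fold change of -0.26 (SE 0.104, adjusted p = 0.124) on 158 to 199 counts in WT and 137 to 157 in S6K1-/- cells, groups that did not overlap. HSPB11, which carries the symbol IFT25 in the annotation and belongs to the intraflagellar transport machinery, was at -0.12 (adjusted p = 0.343).

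The heat shock factors themselves differed little by their estimates. HSF1, the main factor of the heat shock response, had 1275, 1352 and 1297 counts in WT and 1244, 1360 and 1152 in S6K1-/- cells. Its log2 fold change was -0.0038 (SE 0.0474, adjusted p = 0.973), a ratio of 99.7% with an interval from 93% to 107%. HSF2 was at 0.02 (SE 0.0682, adjusted p = 0.913). HSF4, the factor best known from the lens, had 6, 5 and 3 counts in WT and 1, 2 and 2 in S6K1-/- cells and was not tested.

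The 6 genes with a heat shock element in the window printed above can be set side by side. HSP90AA1 was at 0.06, HSP90AB1 at -0.13, HSPA8 at -0.12, HSPD1 at -0.07 and DNAJB6 at 0.03 on the log2 scale, and HSPA6, a strictly heat-inducible HSP70, had at most 2 counts in any library. A long noncoding RNA is annotated on the same strand over all 2355 bases of HSPA6. How reads of overlapping genes were counted was not given in the sources used here, so these counts are no clear measure of HSPA6 expression. None of the 5 that were tested passed an adjusted p of 0.05 in the edgeR test, which 13.8% of all genes passed. A count of 0 among so few genes is no result about them. HSP90AB1 and HSPA8 passed 0.05 with DESeq2's Wald test (adjusted p = 0.0057 and 0.0379) and with no filter on low counts. The estimates of the 5 lay on both sides of 0. The HSPD1 match also lies before the annotated start of the HSPE1 gene (chr2:197500140, plus strand), which was at 0.02 and is not among the 6. Neither HSPA2 nor DNAJB5, the genes called at 0.001, had this run of letters in the window.

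The 16 genes that were not tested fell into those with few reads and those whose sequence is not unique. In 15 of them no library had more than 6 counts, and DNAJC22 reached 11. HSPA1B, HSPA1L, HSPB2 and DNAJB3 had 0 counts in all 6 libraries, where 3 counts correspond to at most 0.137 CPM. HSPA1A, the classical stress-inducible HSP70, had 1 count in one S6K1-/- library and 0 in the other five. HSPA7 had 1, 4 and 1 counts in WT and 0, 1 and 0 in S6K1-/- cells. Other annotated genes lie over the whole span of HSPA6, HSPA7, HSPB2, HSPB9 and DNAJB3. The low counts of these genes may therefore also depend on how reads of overlapping genes were counted.

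For 5 of these genes, HSPA1A, HSPA1B, HSPA1L, DNAJA3 and DNAJC28, no 100-base window of the transcript was found once in the primary chromosomes and on no alternate contig of hg38, an additional version of a region that this build carries beside the chromosomes. All 60 tested genes and the other 11 untested genes had such windows. HSPA1A (chr6:31815543-31817946) and HSPA1B (chr6:31827738-31830254), which lie 9791 bases apart on the plus strand, also share 72.2% and 68.8% of their windows with another place on the primary chromosomes. The first 100 coding bases are shown because they are the same in both genes and carry no letter by which a read could be placed, the first A being the start of the coding sequence.
HSPA1A, chr6:31815757-31815856, and HSPA1B, chr6:31827951-31828050: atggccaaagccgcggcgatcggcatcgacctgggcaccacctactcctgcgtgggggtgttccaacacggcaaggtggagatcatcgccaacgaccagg
DNAJA3, chr16:4425882-4425981: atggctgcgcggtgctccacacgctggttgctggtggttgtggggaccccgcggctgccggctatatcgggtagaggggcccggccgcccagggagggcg

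The HSPA1A stretch occurs at 2 places on the primary chromosomes and 8 on alternate contigs. The DNAJA3 stretch occurs at 1 place on chromosome 16 and 1 on an alternate contig. DNAJA3, a mitochondrial J-domain protein also called TID1, had 0, 0 and 1 counts in WT and 0, 2 and 0 in S6K1-/- cells, and DNAJC28 had at most 4 in any library. Among protein-coding genes, 372 had no such window and much of their transcript on alternate contigs. Of these, 289 (77.7%) had at most 4 counts in every library, with a median highest count of 0. Genes that lack such a window mainly through repeats on the primary chromosomes were not among the 372. Of the 17799 with no window on an alternate contig, 3300 (18.5%) had at most 4 counts, with a median highest count of 304. Whether the alignment included alternate contigs, and how reads with several places were counted, was not given in the sources used here, so that a low count of these 5 genes is no measure of their expression in either genotype.

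**Figure D4:**
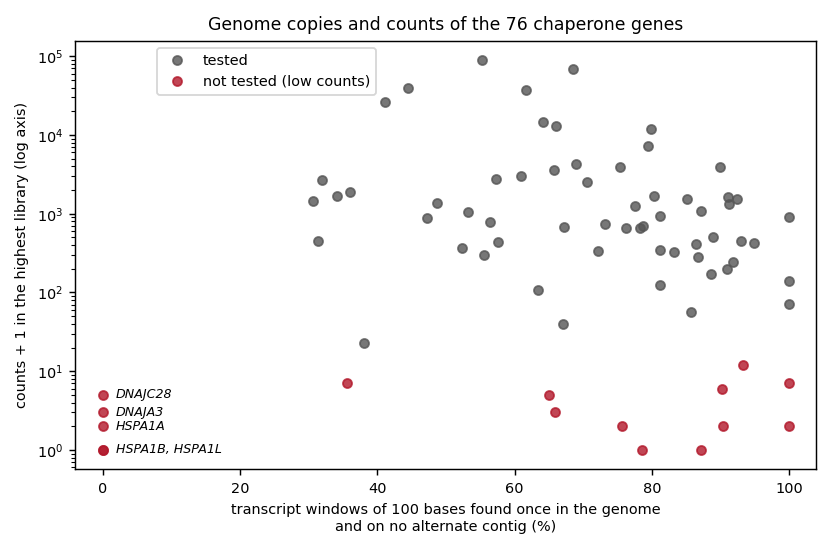
Share of 100-base transcript windows found once in the primary genome and on no alternate contig (horizontal axis, %) against the count in the highest library plus 1 (vertical log axis) for the 76 chaperone genes, tested (grey) or not (red). The 5 genes at 0% are DNAJC28, DNAJA3, HSPA1A, HSPA1B and HSPA1L, with at most 4 counts in any library, and the tested genes lie at 30.6% or more.

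Other genes of protein folding were counted from lists of HSP90 and HSP70 cochaperones, the CCT and prefoldin complexes, ER folding and the unfolded protein response, and the mitochondrial unfolded protein response. Of 88 such genes, 85 were tested, and 2 fell and 0 rose at an adjusted p below 0.001 with edgeR and with DESeq2, beside 2.54% and 1.42% of all genes in the edgeR test. Their median log2 fold change was -0.0092. At an unadjusted p of 0.05 the edgeR test had 6 lower and 8 higher, where 14.5% and 11.8% of all genes were lower and higher. PPID, a prolyl isomerase that binds HSP90, had 1439, 1520 and 1410 counts in WT and 1207, 1169 and 1074 in S6K1-/- cells, a log2 fold change of -0.28 (SE 0.0441, edgeR adjusted p = 4.5e-04). Leaving out any 1 library took the adjusted p of PPID to between 0.0014 and 0.0039, above the threshold of 0.001. At an adjusted p below 0.05 in the edgeR test, 2 of the 85 genes rose, where 5.47% of all genes were higher. They were GAK, the J-domain protein that uncoats clathrin vesicles, at 0.16 (adjusted p = 0.0143), and EDEM1, which takes part in ER-associated degradation, at 0.20 (adjusted p = 0.0177).

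By list, 35 cochaperone genes were tested, of which 2 fell, PPID among them, and GAK rose at an adjusted p below 0.05. Of all genes, 8.31% were lower and 5.47% higher at this threshold. None of the 13 CCT and prefoldin genes tested and none of the 12 genes of the mitochondrial unfolded protein response passed an adjusted p of 0.05 with edgeR or with DESeq2. In the edgeR test 13.8% of all genes passed it. At an unadjusted p of 0.05 these lists had 3 and 1 genes, beside 26.4% of all genes. Of the 25 ER genes tested, EDEM1 was the one that passed, beside 13.8% of all genes. At an unadjusted p of 0.05 in the edgeR test this list had 0 lower and 4 higher, where 14.5% of all genes were lower and 11.8% higher.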

How the data were processed

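Poly(A)-selected bulk RNA of 3 WT and 3 S6K1-/- H7 libraries was sequenced as paired ends. Per the labels and methods, the authors trimmed reads with Trim Galore 0.6.5, aligned them to GRCh38 with Bowtie2 2.4.5, which does not align across splice junctions, and deposited whole-number counts per gene symbol from featureCounts, without normalization. Strand and multi-mapping settings and the annotation release were not given in the sources used here. The authors' own comparison (DESeq2 1.37.4) was deposited as a table of fold changes and p-values and was not used.

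Counts were filtered with filterByExpr, normalized with TMM and tested for genotype alone by the quasi-likelihood F test of edgeR (4.0.16, under R 4.3.3), with Benjamini-Hochberg adjustment over 19521 genes. Adjusted p below 0.001 follows the methods and 0.05 was a second rule. The common dispersion was 0.00216. CPM use the TMM library sizes, and RPKM the canonical GENCODE 44 transcript length. Totals of 21896698 to 24473013 counts set the counting precision. Of the 76 symbols, 75 matched GENCODE directly and HSPB11 matched as IFT25. Transcript windows of 100 bases, taken every 5 bases, were searched in hg38 with 261 alternate contigs. The steps were tested on simulated data.

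Members and lists were chosen with earlier results of these data known. The rule for naming genes took every member past 0.05, the highest of each role per length, HSF1, HSF2, HSF4, HSPA1A, HSPA1B, HSPA5, HSP90B1, HSPD1 and HSPE1, and of the lists those past 0.001 or up to 3 past 0.05. Other members were named for the role paragraphs. A gene that the rule would name is not reported here. Alternatives were DESeq2's size factors, its Wald test (DESeq2 1.42.0), other count filters, a replicate block, leaving out single libraries, other thresholds, and counts summed with numbered pseudogenes.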

Additional observations from a re-analysis of the deposited data

How the results depend on the processing

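HSPA2 kept its direction and passed 0.001 in 11 of 12 alternatives, with log2 fold changes from -0.45 to -0.39, and DNAJB5 passed in 8 of 12, from 0.28 to 0.31. With 1 library left out, the number of chaperone genes past 0.001 ranged from 0 to 1 in either direction: it was 0 for lower genes without S6K1-/- replicate 2, and 0 for higher genes without WT replicate 1 or any 1 of the S6K1-/- libraries. With no filter on low counts 2 chaperone genes were higher, and at thresholds of 0.05 and 0.01 there were 3 and 2 lower and 3 and 2 higher. Over all genes, 982 were lower and 591 higher with no filter, 1622 and 1067 at 0.05, and 939 and 534 at 0.01. Leaving out 1 library gave from 313 to 445 lower and from 175 to 235 higher, with the fewest lower without S6K1-/- replicate 3 (313) and the fewest higher without S6K1-/- replicates 1 (175) and 2 (179). Of the protein folding genes outside the family, 1 was lower when any 1 library was left out and with the replicate block, 1 was higher with no filter and 2 at 0.05. The causes of these shifts were not tested, beyond the smaller number of libraries.

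Replicate numbers were shared without pairing: the correlations of same-numbered deviations were 0.018, 0.0017 and 0.032, and 1 of 3 pairs matched best with its own number. The replicate block left HSPA2 and DNAJB5 past 0.001, and at 0.05 it dropped HSPA12A and added DNAJC13, with 2 lower and 4 higher. Signs turned for HSF1, HSP90B1, HSF2, HSPE1 and DNAJA1, and for DNAJB1, DNAJB11, DNAJC1, DNAJC3, DNAJC4, DNAJC6, DNAJC7, DNAJC15, DNAJC25, HSPA9, HSPA13, HSPB6 and HSPH1, none of which passed 0.05 under any of the 12 alternatives; the widest range was that of HSPB6, from -0.15 to 0.15. HSF1 was at 0.0028 with DESeq2's size factors, 0.0053 with its Wald test and 0.0027 with pseudogenes added, and HSP90B1 at 0.00070 with the Wald test. With 1 library left out, HSF1 ranged from -0.038 to 0.022, HSP90B1 from -0.012 to 0.0065, HSF2 from -0.021 to 0.059, HSPE1 from -0.060 to 0.093 and DNAJA1 from -0.0034 to 0.070. Depth limits the genes under about 100 counts, such as DNAJB13 and DNAJC12.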

Other observations

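Several family genes carry symbols outside the numbered series and were looked at after the values of the others were known. CRYAB, the small heat shock protein αB-crystallin, also called HSPB5, had 33, 40 and 42 counts in WT and 13, 20 and 5 in S6K1-/- cells. The groups did not overlap, and the log2 fold change was -1.53 (SE 0.306, edgeR adjusted p = 0.0032), on a level of 1.60 ± 0.228 CPM (SD, n = 3) in WT and 0.540 ± 0.303 in S6K1-/- cells. CRYAB overlaps HSPB2 on the other strand, and HSPB2 had 0 counts in all libraries. CRYAA and ODF1, the other small heat shock proteins outside the numbered symbols, had 0 counts in all libraries.

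Relatives of the HSP70 and HSP90 proteins in the ER and mitochondria gave estimates close to 0. HYOU1, an ER member of the HSP70 superfamily, had 7063 to 7576 counts in WT and 6513 to 7191 in S6K1-/- cells, and a log2 fold change of -0.03 (SE 0.0374, adjusted p = 0.691). TRAP1, the mitochondrial HSP90, was at -0.04 (SE 0.0417, adjusted p = 0.609). Among J-domain proteins with other names, SEC63, which serves the ER translocon, was at 0.09 (SE 0.0386, adjusted p = 0.135), and HSCB, which serves iron-sulfur cluster assembly, at -0.12 (SE 0.0804, adjusted p = 0.386). The groups did not overlap for either.

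Of 13 genes of the immediate early response tested, 2 were lower and 1 higher at an adjusted p below 0.05, beside 8.31% and 5.47% of all genes, and 1 and 1 with DESeq2. JUN fell by 0.48 on the log2 scale (adjusted p = 8.8e-05) and FOS rose by 0.65 (adjusted p = 4.1e-04), and FOSB fell by 0.84 (adjusted p = 0.0175). These edgeR values stand beside BAG3, a cochaperone gene induced by HSF1, which was at 0.05 (adjusted p = 0.647).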
